A study of Mus musculus with 12 samples.

Results

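The genes described here encode secreted WNT antagonists and their partner receptors: Sfrp1, Sfrp2, Frzb, Sfrp4 and Sfrp5, Dkk2, Dkk3 and Dkk4, and Kremen1 and Kremen2. They are 10 of the 21938 protein-coding genes of chromosomes 1 to 19, X and Y in the GENCODE M21 annotation, and were chosen by gene family. Dkk1 is not among them, so the Dkk family is not covered in full. A summit, the point of highest coverage in a ChIP-seq peak, was counted for a gene when it lay in the gene body or within 100 kb of it on the mouse build mm10. By this rule 25 of the 16238 β-catenin consensus summits of wild-type controls and 0 of the 224 after C59 belonged to these genes. For H3K27ac the rule gave 68 of the 31466 wild-type summits, and 58 of the 30166 summits called with C59.

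Embryos of wild-type Swiss Albino mice at E10.5 were exposed to C59, which inhibits porcupine and thereby blocks the secretion of WNT ligands, or to the DMSO solvent (wild-type control), and their forelimb buds were dissected 6 h later. β-Catenin and H3K27ac, a histone mark of active promoters and enhancers, were profiled by ChIP-seq with 2 biological replicates per antibody and treatment, each made from pooled buds. Every library therefore averages over the mesenchyme, ectoderm, muscle precursors and vessels of the bud, and fewer cells with a bound site cannot be told apart from less binding per cell. The labelled tissue was checked at promoters, through H3K27ac summits that had a transcriptional start site (TSS) less than 1 kb away. All 4 H3K27ac libraries had summits at the forelimb gene Tbx5, with up to 177 to 216 fragments at a summit, and at the limb mesenchyme gene Prrx1, with 130 to 166. No H3K27ac library had one at the hindlimb gene Pitx1, the ectodermal genes Trp63 and Fgf8, the blood genes Gata1 and Hbb-bs or the neural genes Neurod1 and Sox1. At the hindlimb gene Tbx4 the 4 libraries had 1 or 2 summits covered by 11 to 17 fragments. By fold enrichment over expected coverage the order was reversed, with 3.25 to 4.63 at Tbx4, 2.18 to 2.60 at Tbx5 and 2.19 to 2.63 at Prrx1. Of the muscle precursor genes, Lbx1 had 1 or 2 summits in each library and Pax3 had 1 in replicate 2 of each treatment.

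WNT ligands bind Frizzled receptors and the co-receptors LRP5 and LRP6 at the cell surface, which stabilises β-catenin, and β-catenin then joins TCF/LEF factors on DNA to activate target genes. SFRP proteins, including FRZB, carry a Frizzled-like cysteine-rich domain and bind WNT ligands outside the cell. DKK2 and DKK4 instead bind LRP5 and LRP6, and Kremen proteins are transmembrane receptors for these DKK proteins, whereas DKK3 is a divergent member of the family whose role in WNT signaling is less clear. In limb buds such antagonists limit where and how strongly mesenchymal cells receive WNT signals.

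The DNA at the strongest β-catenin summits is shown first, because the results below refer to these elements. Either form of the TCF/LEF core, ATCAAAG or TTCAAAG, which differ in their first base, was looked for on both strands of the 200 bp around each summit. All positions are on mm10, each sequence is read 5′ to 3′ on the plus strand unless stated, and capitals mark the core. In a plus-strand sequence, a core on the minus strand appears as its reverse complement, such as CTTTGAT for ATCAAAG. The highest fold enrichment at any of the 10 genes was at an intronic element of Dkk2 (chr3:132122716-132122915), followed by an element upstream of Kremen1 in an intron of Znrf3 (chr11:5297213-5297412) and by an intergenic element downstream of Frzb (chr2:80404893-80405092), which holds no core.
Dkk2 intronic element: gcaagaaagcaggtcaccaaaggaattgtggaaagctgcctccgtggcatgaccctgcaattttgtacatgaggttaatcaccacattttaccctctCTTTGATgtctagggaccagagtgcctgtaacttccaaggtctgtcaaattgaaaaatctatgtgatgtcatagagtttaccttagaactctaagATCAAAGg
Kremen1 upstream element: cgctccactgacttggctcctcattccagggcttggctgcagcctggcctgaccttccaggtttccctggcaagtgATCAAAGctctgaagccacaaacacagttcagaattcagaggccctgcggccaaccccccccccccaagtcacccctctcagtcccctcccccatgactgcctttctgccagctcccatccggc
Frzb downstream element: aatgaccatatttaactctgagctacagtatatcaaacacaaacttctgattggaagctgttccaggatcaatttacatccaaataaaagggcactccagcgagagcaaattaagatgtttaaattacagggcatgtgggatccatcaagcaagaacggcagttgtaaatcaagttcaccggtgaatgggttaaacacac

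The cores of the strongest core-bearing summit of the other members are given with 17 bases on either side, to show the flanks beside each other. They come from the distal Sfrp1 element (chr8:23510220-23510260, minus strand), from 3 cores of 1 element in the Dkk3 window (chr7:112023924-112023964, plus strand, chr7:112023996-112024036, minus strand, and chr7:112024049-112024089, plus strand), and from the Kremen2 window (chr17:23695645-23695685, plus strand).
Sfrp1 distal core: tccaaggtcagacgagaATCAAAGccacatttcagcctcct
Dkk3 window, core 42 bp from the summit: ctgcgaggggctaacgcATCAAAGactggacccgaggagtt
Dkk3 window, core 30 bp from the summit: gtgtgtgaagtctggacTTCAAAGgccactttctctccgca
Dkk3 window, core 83 bp from the summit: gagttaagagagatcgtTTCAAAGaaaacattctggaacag
Kremen2 window core: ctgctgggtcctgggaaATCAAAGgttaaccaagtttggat

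β-Catenin consensus summits were called at 7 of the 10 antagonist genes in wild-type controls and at none after C59, and wild-type replicates 1 and 2 had summits at 8 and 10 of them. Summed over the 10 windows, the replicate lists of wild-type controls held 33 and 48 β-catenin summits, and both C59 lists held 0. The groups did not overlap and differed by −40.5 summits on average, with p = 0.333 in the two-sided exact permutation test, which is the smallest p that 2 against 2 replicates allow. For 8 of the 10 genes both C59 lists held fewer β-catenin summits than either wild-type list, beside 65.0% of all coding genes, and for Sfrp4 and Dkk4 the first wild-type replicate had none. All 25 consensus summits lay outside C59 consensus peaks, beside 98.7% of all β-catenin summits. A β-catenin consensus summit was present in the window of 58.8% of coding genes in wild-type controls and of 0.898% after C59.

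**Figure D1:**
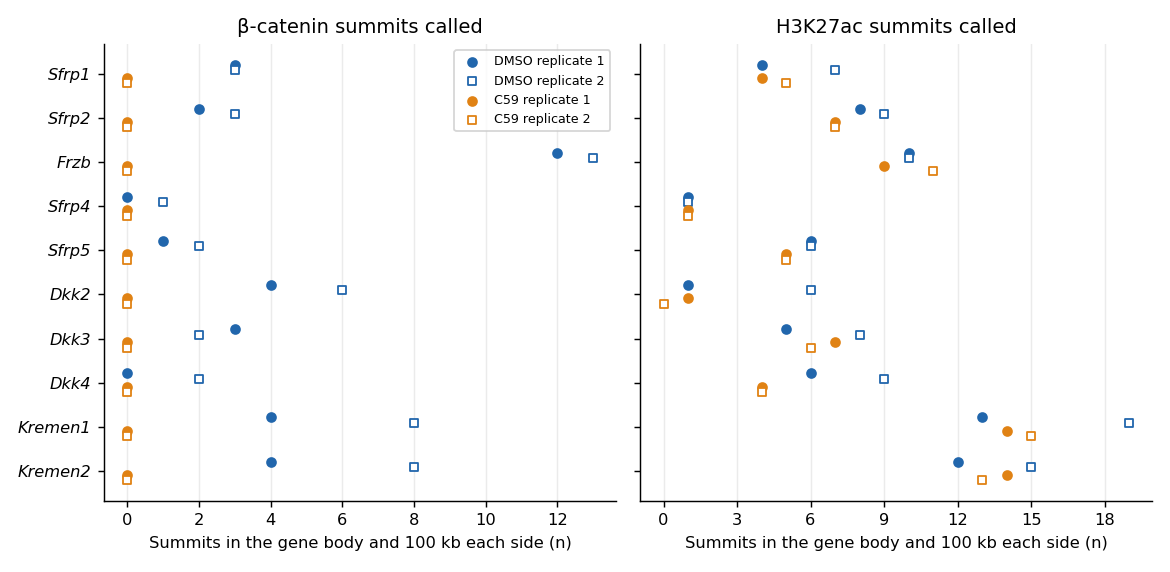
Number of called β-catenin (left) and H3K27ac (right) summits in each gene body with 100 kb on either side, for each of the 4 libraries per antibody. Every C59 library sits at 0 for β-catenin, whereas the H3K27ac counts of both C59 libraries lie below both DMSO libraries at Sfrp2, Sfrp5 and Dkk4 and meet or overlap them at the other genes.

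A peak list states what passed a threshold, and the threshold was not the same in all libraries. The deposited fold enrichment and p of a summit give the number of fragments covering it and the coverage that MACS2 expected there from the same library. The lowest expected coverage, a measure of depth, was 1.57 and 1.81 fragments for wild-type β-catenin libraries, and 1.83 and 1.82 fragments for those of C59-treated buds. The weakest summits called had 8 fragments in either wild-type library and 11 in either C59 library, and the lowest −log10 p called was 3.89 and 3.79 without C59, against 5.69 and 5.72 with it. At 21 of the 25 antagonist gene summits both wild-type replicates reached a −log10 p of 5.72, and so lay above the limit of the C59 replicate lists. The other 4 had a replicate below it or without a summit, and were the Frzb summit 132 kb downstream, the Sfrp5 summit, the weaker Dkk3 summit and a Kremen2 summit. With every list held to that limit, chosen after seeing the data, wild-type replicates kept 30 and 36 summits against 0 and 0. The consensus lists differed more, with at least 11 fragments and a −log10 p of 3.69 in wild-type controls, against 21 and 8.92 after C59. The weakest of the 25 summits had 16 fragments in the wild-type consensus list. A site without a called summit is not shown to be free of β-catenin.

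Both wild-type libraries gave similar values at these sites. Consensus summits had been kept only where they lay in peaks of each replicate, so a match in both was largely fixed by that choice. Of the 33 and 48 replicate summits, 8 and 21 had no consensus summit within 300 bp. A summit within 300 bp was listed in replicate 1 for 24 and in replicate 2 for 25 of the consensus summits, where a pair of Kremen2 summits 74 bp apart shared 1 row in replicate 1. The fold enrichments of the replicates differed by at most 1.48 times, with a median of 1.19 times. Coverage ran from 10 to 111 fragments in replicate 1 and from 9 to 114 in replicate 2, with a median of 20 in each.

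**Figure D2:**
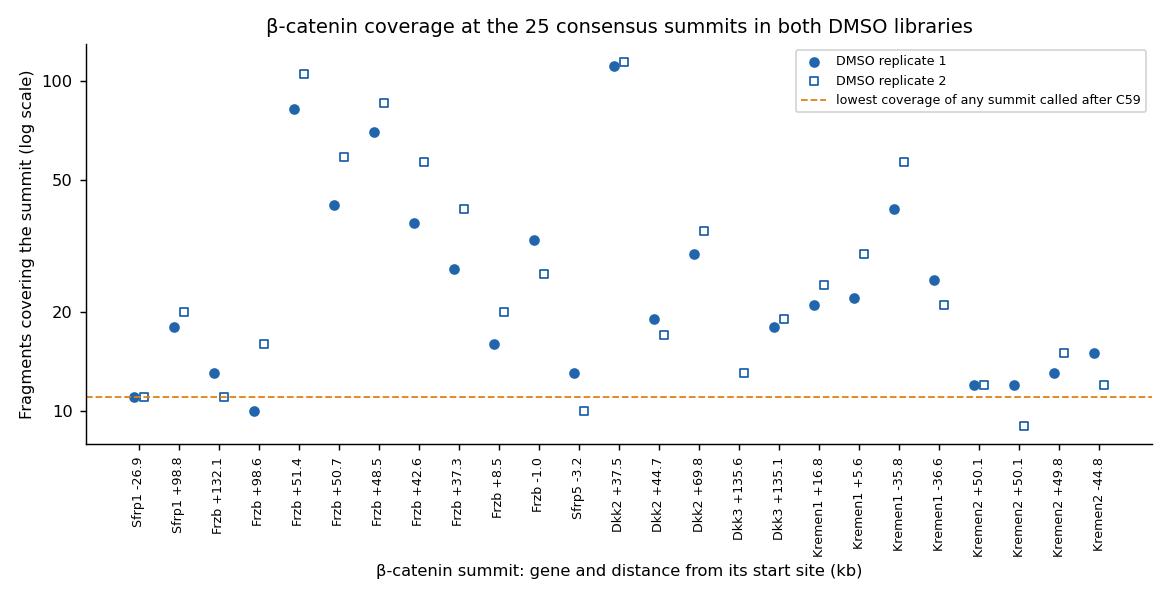
Fragments covering each of the 25 β-catenin consensus summits in DMSO replicate 1 (filled circles) and replicate 2 (open squares) on a log scale, where the dashed line marks the 11 fragments of the weakest summit called after C59. The Dkk2 summit at 37.5 kb and the Frzb summits at 48.5 and 51.4 kb stand highest, and 4 summits touch values below the line or lack a replicate 1 value.

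Among the genes for ligand-binding SFRP proteins, Frzb carried most of the β-catenin summits. Frzb had 12 and 13 summits in the wild-type replicates and 9 in the consensus list, and 1.71% of coding genes had at least 9. Of these, 5 lay downstream of the gene between 37.3 and 51.4 kb from its start site, in an intergenic stretch that starts shortly past the 3′ end of the gene on chromosome 2. The Frzb summit with the highest fold enrichment, 11.6 in the consensus list, was 42.6 kb downstream and had 37 and 57 fragments in the wild-type replicates. The next, at 51.4 kb downstream with a fold enrichment of 10.3, had 82 and 105 fragments. Next in order was the site 37.3 kb downstream, with a fold enrichment of 9.69 and with 27 and 41 fragments.

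Ranked by coverage, the order within this Frzb cluster was different. The consensus list gave 162 fragments at 51.4 kb, 144 at 48.5 kb and 89 at 50.7 kb, against 83 at 42.6 kb and 60 at 37.3 kb. MACS2 expected at least 14.8 fragments at each of the first 3 of these sites and 6.25 and 5.30 at the other pair, and at most 6.89 at any β-catenin summit of the other antagonist genes. The expected coverage was taken from the same library around the site, as no input was used. What raised it at the first 3 sites was not tested. Of all β-catenin summits, 1.73% had at least 162 fragments and 2.32% at least 144.

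The Frzb promoter was also bound in wild-type controls. The summit 971 bp upstream of the Frzb start site had a consensus fold enrichment of 8.17, with 33 and 26 fragments in the replicates. A second summit in an intron, 536 bp from the start of a shorter Frzb transcript, had a fold enrichment of 6.74, with 16 and 20 fragments. These were the only consensus summits of the 10 genes less than 1 kb from a TSS of the member itself. The remaining 2 Frzb summits, at 98.6 and 132 kb downstream, lay in the neighbouring gene Dnajc10, the farther one 61 bp from a Dnajc10 start site. None of the 9 Frzb summits had a TCF/LEF core within 100 bp.

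The other SFRP genes had few β-catenin summits in wild-type controls. Sfrp1 had 3 summits in each replicate and 2 in the consensus list, both intergenic and both with a core. The summit 98.8 kb downstream of the Sfrp1 start site had fold enrichments of 7.32 and 6.87 in the replicates, with 18 and 20 fragments. The one 26.9 kb upstream had a fold enrichment of 4.92, with 11 fragments in each replicate, which is the C59 calling limit itself. Sfrp5 had 1 and 2 summits, of which 1 was in the consensus list, 3.17 kb upstream with a fold enrichment of 6.14 and with 13 and 10 fragments.

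Sfrp2 and Sfrp4 had no β-catenin consensus summit within 100 kb. The Sfrp2 window held 2 summits in replicate 1 and 3 in replicate 2, of which 1 in each lay in the same intergenic stretch, 18.1 and 17.5 kb downstream, with 11 fragments in each replicate and both inside the same wild-type H3K27ac peak. The strongest Sfrp2 summit was 42.4 kb downstream in replicate 1 only, with a fold enrichment of 6.42 and 16 fragments. Sfrp4 had 0 and 1 summits, the latter 3.85 kb upstream in an intron of Epdr1 with 8 fragments, the lowest coverage called.

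Among the Dkk genes listed here, whose DKK2 and DKK4 products act on LRP5 and LRP6, Dkk2 held the strongest β-catenin site of all 10 genes. The intronic summit 37.5 kb downstream of the Dkk2 start site had a fold enrichment of 26.2 in the consensus list, and 24.5 and 22.9 in the replicates with 111 and 114 fragments. It had 206 fragments in the consensus list, a coverage that 0.640% of all β-catenin summits reached. A core lay 0 bp from this summit on the minus strand, printed above as CTTTGAT, and another 95 bp away on the plus strand. Both were ATCAAAG. A second intronic Dkk2 summit, 69.8 kb downstream, had a fold enrichment of 10.8, with 30 and 35 fragments and a core 5 bp from the summit. The remaining Dkk2 summit, 44.7 kb downstream, had 7.33, with 19 and 17 fragments and no core. No other protein-coding gene lies within 100 kb of Dkk2, and none of its 3 summits lay in an H3K27ac peak of any library.

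Dkk3 and Dkk4 had weaker or less repeatable β-catenin sites. Dkk3 had 3 and 2 summits, and both of its consensus summits belonged to a single peak 135 kb downstream of the Dkk3 start site, at the promoter of the neighbour Usp47, 29 and 330 bp from a Usp47 start site. The stronger had a fold enrichment of 5.94, with 18 and 19 fragments and 3 cores, and the weaker 3.56, with 13 fragments in replicate 2 and no summit within 300 bp in replicate 1. Dkk4 had 0 and 2 summits. The Dkk4 summit nearest to its promoter, in replicate 2 only, lay 290 bp upstream of the Dkk4 start site, with a fold enrichment of 4.62, 12 fragments and 3 cores within 100 bp.

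The Kremen genes, which encode DKK receptors, each had 4 and 8 β-catenin summits in the wild-type replicates and 4 in the consensus list. The strongest Kremen1 summit, 35.8 kb upstream in an intron of Znrf3, had a fold enrichment of 12.2, with 41 and 57 fragments and a core 21 bp from the summit. Inside Kremen1 the summit 5.63 kb downstream of the start site had 8.08, with 22 and 30 fragments, and that at 16.8 kb had 7.07, with 21 and 24. All 4 Kremen1 summits were also within 100 kb of Znrf3, a WNT feedback gene, so they cannot be assigned to either gene by position.

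Kremen2 lies in a gene-dense region, with 17 other protein-coding genes in its window. Of its 4 consensus summits, 3 formed a single intergenic peak about 50 kb downstream with fold enrichments of 3.85 to 6.70, whose strongest summit had 13 and 15 fragments. The fourth lay 44.8 kb upstream, 12 bp from a start site of Srrm2, with a fold enrichment of 5.00 and 15 and 12 fragments. None of the 4 had a Kremen2 start site as the nearest coding TSS.

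**Figure D3:**
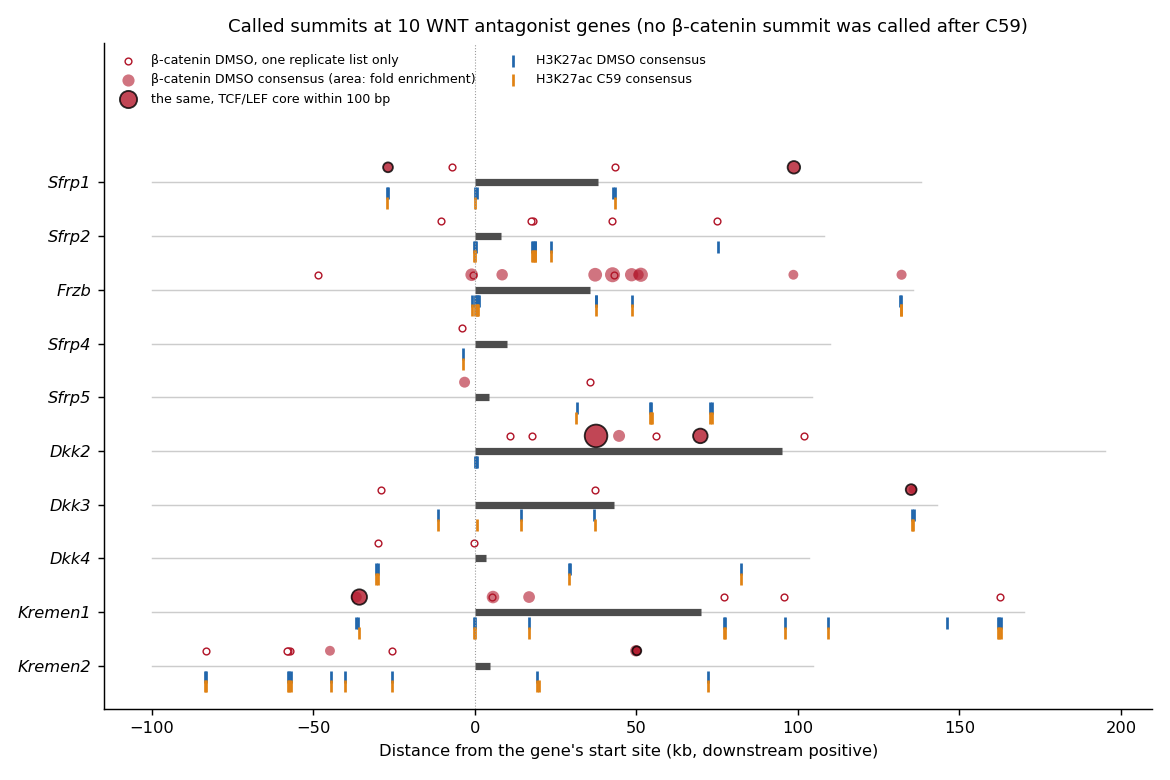
Called summits at each gene by distance from its start site in kb, with the gene body as a dark bar and the counted window as a grey line, showing β-catenin in DMSO above the line (filled for the consensus list with area in proportion to fold enrichment and a black rim for a TCF/LEF core, open for summits of 1 replicate list only) and H3K27ac in DMSO (blue) and after C59 (orange) below it. The Frzb cluster downstream of the gene and the large intronic Dkk2 summit have few or no H3K27ac summits beside them.

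Position and sequence of the 25 β-catenin summits were close to those of all summits. Their median fold enrichment was 6.74 against 6.75 for all consensus summits, and their median coverage was 33 against 32 fragments. A core lay within the 200 bp window of 7 of them, or 28.0% (95% Wilson interval 14.3 to 47.6%), beside 28.6% of the 16193 summits on chromosomes 1 to 19, X and Y. These summits held 10 cores, 7 of them ATCAAAG, and 8 of the 10 lay within 50 bp of the summit. Distal sites, at least 1 kb from any TSS, made up 19 of 25, or 76.0% (56.6 to 88.5%), beside 83.7%. Intervals cover counting error over summits only, and summits of 1 peak are not independent. RefSeq promoters (GRCm38.p6, 250 bases before to 50 after the start) were matched for 5 of the genes, Sfrp2, Frzb, Sfrp5, Dkk2 and Kremen2, and held no core, which 8.65% of the 32851 RefSeq promoters contained.

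The rule's limit of 100 kb from the gene body set which sites were counted. The farthest sites inside were the Frzb summit at 96.4 kb, with a fold enrichment of 5.21, and the weaker Dkk3 summit at 92.5 kb. The nearest outside were near Sfrp5 at 103 kb, with 11.2, and near Dkk3 at 116 kb, with 5.65.

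H3K27ac lay at 10 of the 25 β-catenin summits in wild-type controls, or 40.0% (23.4 to 59.3%), beside 22.1% of all β-catenin summits. These were 4 summits at Frzb, 2 each at Dkk3 and Kremen1 and 1 each at Sfrp1 and Kremen2. The Dkk3 pair, the Kremen2 summit and the Frzb summit 132 kb downstream lay at promoters of the neighbours Usp47, Srrm2 and Dnajc10. Where only summits with the antagonist gene's start site as the nearest coding TSS were counted, the share was 6 of 17, or 35.3%. Of the 5 summits in the Frzb cluster downstream of the gene, those at 48.5 and 37.3 kb lay in H3K27ac consensus peaks of both conditions, but in the peaks of no more than 1 replicate per condition. The summit at 51.4 kb, which had the highest coverage at Frzb, lay in no H3K27ac peak of any library. With the C59 peaks in place of the wild-type peaks, 9 of the 25 sites lay in H3K27ac. The site that differed was in Kremen1 at 16.8 kb, where the H3K27ac summit itself, 16.7 kb downstream with 52 fragments in the wild-type list, was called again after C59 with 52 fragments in a peak whose edge stopped just short of the β-catenin summit.

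H3K27ac was called at the antagonist genes in both conditions. The wild-type replicates held 66 and 90 H3K27ac summits and the C59 replicates 66 and 67, a mean difference of −11.5 with ranges that met, and p = 1 in the two-sided exact permutation test. Without wild-type replicate 2 the difference was 0.5, so the lower mean number of summits after C59 rested on that library. It was −2.5 with lists of equal length and −0.5 at a −log10 q of at least 5. With a 200 kb window it was −16.0 and with peaks counted in place of summits −8.5, and in these settings both C59 libraries lay below both wild-type libraries (p = 0.333 in the exact permutation test, the smallest possible). Of the 68 wild-type consensus summits, 8 lay outside the C59 consensus peaks, or 11.8% (6.08 to 21.5%), beside 10.9% of all, and 2 of these 8 lay in a peak of 1 C59 replicate. Of the 58 C59 consensus summits, 1 lay outside the wild-type consensus peaks, or 1.72% (0.305 to 9.14%), beside 9.14% of all. The interval just reaches the share of all summits, and this Dkk3 summit lay in a peak of wild-type replicate 2. The shares were different when lists of equal replicate number were compared. Of the wild-type summits 13.6% in replicate 1 and 36.7% in replicate 2 lay outside the C59 peaks, beside 16.1% and 23.8% of all summits. Of the C59 summits 13.6% and 11.9% lay outside the wild-type peaks, beside 21% and 13.7%.

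Both C59 replicates had fewer H3K27ac summits than either wild-type replicate at Sfrp2 (8 and 9 against 7 and 7), Sfrp5 (6 and 6 against 5 and 5) and Dkk4 (6 and 9 against 4 and 4), which is 3 of 10 genes beside 12.1% of coding genes. In the consensus lists Sfrp5 went the other way, with 5 and 6 summits, all nearest to the start sites of its neighbours Avpi1, Marveld1 and Zfyve27. The Dkk4 window held 5 and 4 consensus summits, all nearest to the start sites of its neighbours Vdac3, Polb and Ikbkb. More H3K27ac summits in both C59 replicates than in either wild-type replicate were seen at 0 of 10, beside 4.84%.

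The height of the mark was compared at the 47 wild-type H3K27ac summits that had their own match within 300 bp in all 4 libraries. Their median log2 ratio of C59 to wild-type fold enrichment was 0.03, against 0.00 for the 22850 such summits of the genome. Both C59 values were below both wild-type values at 8 of the 47, beside 20.4% of all, and above them at 10, beside 20.5%. The Sfrp2 window held 6 of the 47 summits, and 4 of these were among the higher ones. The Sfrp2 promoter summit 84 bp downstream of the start site had fold enrichments of 7.93 and 11.6 in wild-type controls against 12.5 and 11.6 with C59, so that the nearest values differ only past the last digit shown. The intergenic Sfrp2 element had 5.31 and 4.55 against 6.20 and 5.59 at 17.8 kb, and 3.57 and 2.83 against 4.86 and 4.20 at 18.5 kb. At 23.6 kb, 55 bp from an annotated start site of another gene that is not protein-coding, the values were 6.61 and 6.44 against 6.98 and 6.93. The other 2 had overlapping values and log2 ratios below 0, which were −0.06 at 288 bp upstream in the promoter peak (5.92 and 7.12 against 6.29 and 6.23) and −0.19 at 75.2 kb by the Tlr2 promoter. The lowest log2 ratio, −0.33, was at the promoter of Polb in the Dkk4 window.

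Promoters fell into genes with and without the mark. An H3K27ac consensus summit lay less than 1 kb from the member's own TSS at 5 of 10 genes in wild-type controls, beside 52.2% of coding genes, and at 5 of 10 after C59, beside 51.2%. Sfrp1, Sfrp2, Frzb and Kremen1 had it in all 4 libraries. The most covered Kremen1 promoter summit had 87 and 99 fragments in wild-type controls, against 88 and 66 with C59. That of Sfrp2 had 86 and 132 against 139 and 120, that of Frzb 44 and 53 against 62 and 45, and that of Sfrp1 31 and 44 against 35 and 37. By fold enrichment Kremen1 had 12.2 and 12.5 against 12.1 and 10.6, and was alone among these 4 in having both C59 values below both wild-type values. Fragments were not scaled to depth, and the lowest expected coverage of the H3K27ac libraries was 2.69 and 2.88 without C59, against 3.17 and 2.98 with it. Sfrp4, Sfrp5, Dkk4 and Kremen2 had no promoter summit in any library.

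H3K27ac over the Frzb promoter formed 1 unbroken peak in wild-type controls and 2 peaks after C59. The peak was 2273 and 2242 bp wide in the wild-type replicates, with 5 and 4 summits. In C59 replicate 1 it was replaced by peaks of 912 and 938 bp, and in C59 replicate 2 by peaks of 754 and 1202 bp. The consensus lists gave 2325 bp on chromosome 2 from 80446279 to 80448603 in wild-type controls, and peaks of 937 bp (80446320 to 80447256) and 1220 bp (80447443 to 80448662) after C59, so the outer edges stayed close and the gap lay just inside the gene. The wild-type summit 333 bp downstream of the Frzb start site, with a fold enrichment of 2.46 and 43 fragments, lay in that gap. The most covered summits lay on the other side, 71 bp upstream with 94 fragments in wild-type controls and 57 bp upstream with 90 fragments after C59. Of all wild-type consensus peaks at least 2000 bp wide, 8.38% overlapped 2 or more C59 peaks, and 15.8% of C59 peaks of that width overlapped 2 or more wild-type peaks. The β-catenin summit 971 bp upstream of Frzb was inside an H3K27ac consensus peak in both conditions, and among the replicates in that of C59 replicate 2 only.

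At 2 promoters the consensus call differed between conditions. Dkk2 was called in wild-type controls only, as were 1.75% of coding genes, and Dkk3 after C59 only, as were 0.752%. The Dkk2 promoter had 3 wild-type consensus summits, 175, 360 and 777 bp downstream of the start site, with fold enrichments of 3.07 to 3.94 and 23 to 30 fragments. In the replicates, wild-type replicate 1 had 1 Dkk2 promoter summit, 311 bp downstream with 13 fragments, and wild-type replicate 2 had 5, from 849 bp upstream to 522 bp downstream with 13 to 20 fragments. C59 replicate 1 had 1, 846 bp upstream with 16 fragments, close to the most covered one of wild-type replicate 2, and C59 replicate 2 had none. No C59 library thus had a summit over the stretch downstream of the Dkk2 start site. The Dkk3 promoter summit, 766 to 773 bp downstream of the start site, had 18 fragments in wild-type replicate 2, 17 and 18 after C59 and no call in wild-type replicate 1. The weakest H3K27ac summits called anywhere had 10 to 11 fragments.

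**Figure D4:**
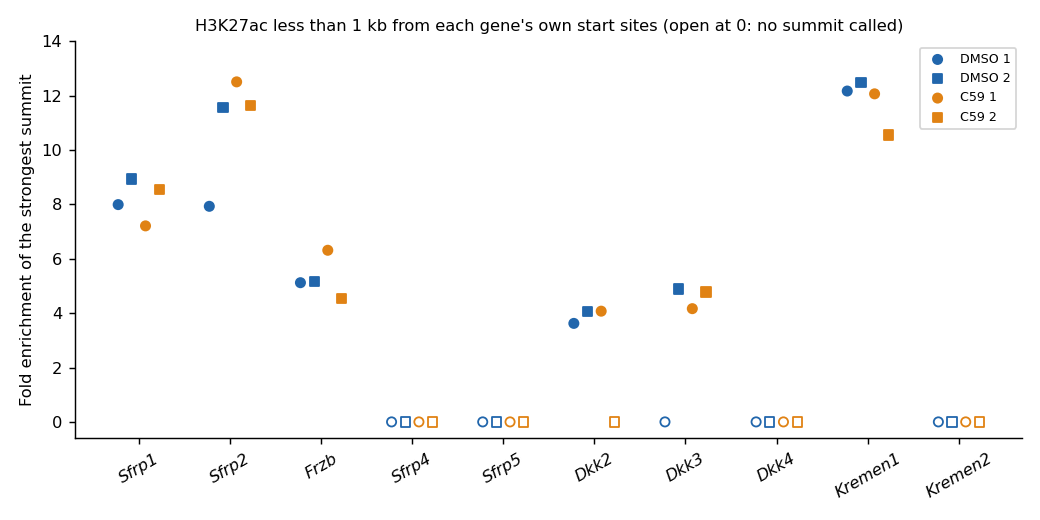
Fold enrichment of the strongest H3K27ac summit less than 1 kb from each gene's own start sites in the 4 libraries, with open symbols at 0 where no summit was called. DMSO and C59 values interleave at Sfrp1 and Frzb, both C59 values are the higher ones at Sfrp2 and the lower ones at Kremen1, and Dkk2 and Dkk3 each lack a summit in 1 library.

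Other genes of the pathway were counted in the same way. The 11 WNT receptor and co-receptor genes taken were Fzd1 to Fzd7, Fzd9, Fzd10, Lrp5 and Lrp6. These receptor genes had 38 β-catenin consensus summits in wild-type controls, at 10 of 11 genes, and 0 after C59. The strongest of these, at Fzd10, had a fold enrichment of 27.8, and Fzd10 had 1 summit in C59 replicate 2. The 6 feedback genes Axin2, Nkd1, Nkd2, Notum, Znrf3 and Rnf43 had 41, at 5 of 6 genes, and 3 after C59, all at Axin2, a standard readout of WNT signaling. Per Mb of window this came to 10.8 summits for the antagonist genes, 14.9 for the receptor genes and 25.9 for the feedback genes, against 6.06 over all coding genes, whose windows overlap. The antagonist and feedback lists share the 4 Kremen1 summits.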

How the data were processed

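Peaks of each replicate were called by the authors with MACS2 2.2.7.1 and no input, from reads trimmed with cutadapt (4.1 in the submitters' notes) and aligned to mm10 with Bowtie2 2.4.5 at high mapping quality. Consensus lists came from a joint call on both replicates, sampled to equal size after Picard 2.27.4 had taken out duplicates, of which the authors kept summits lying in the peaks of each replicate. Each deposited row holds the summit's fold enrichment, a ratio over expected coverage, and the −log10 p and q. The 8 replicate and 4 consensus lists were used, and the 4 input samples were not used here. No blacklist was applied here.

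Coverage was solved from fold and −log10 p as a Poisson tail, for rows with a −log10 p under 250, and came out whole to within 0.05 for 92.8 to 100.0% of rows per list. It is the only depth known, and the weakest β-catenin calls rest on 8 fragments. Genes and TSSs came from GENCODE M21 and sequence from GRCm38, which 0 peaks exceeded in length. Summed counts were compared by exact permutation test, and shares were given with Wilson intervals at 95% and no test. Functions were tested on simulated data. Members, gene lists and tests were chosen with earlier results of these data known. Named were all 10 genes and the 3 consensus summits of highest fold enrichment per gene. Every consensus summit less than 1 kb from the gene's own TSS was also named. Other summits were named where a count turned on them. Replicates 1 and 2 share numbers across treatments, and nothing states that they were paired. Alternatives comprised other windows, thresholds, overlap rules, single replicates and a replicate block. Software was scipy 1.17.1, pysam 0.24.0, pandas 2.3.3 and numpy 2.4.6 under Python 3.11.15.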

Additional observations from a re-analysis of the deposited data

How the results depend on the processing

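Of 80 alternatives, 75 kept the direction of a difference, a share inside the Wilson interval of the reported value or a count within 1.5 times. The difference in β-catenin summits stayed negative under all of its 11 alternatives, from −63.5 with a 200 kb window to −25.0 at a −log10 q of at least 5, and from −48.0 to −33.0 when 1 replicate was left out. The share of β-catenin summits outside C59 peaks stayed at 100% throughout. The difference in H3K27ac summits ran from −23.5 to 0.5 when 1 replicate was left out, and the value of 0.5, without wild-type replicate 2, was the only change of sign. It was −0.5 at a −log10 q of at least 5 and −2.5 with lists trimmed to equal length. The share of wild-type H3K27ac summits inside a C59 peak was 63.3% in the replicate 2 lists against 88.2% in the consensus lists, and the share of C59 summits inside a wild-type peak was 86.4 and 88.1% in the replicate lists against 98.3%. The receptor genes had 66 β-catenin summits in replicate 2 against 38 in the consensus list, an alternative chosen after seeing the data. The causes were not tested. With a replicate block the differences remained −40.5 (p = 0.5, exact permutation within pairs, the smallest it allows) and −11.5 (p = 1). Over the windows of 21938 coding genes, the deviations of equal replicate numbers had r = −0.002 for β-catenin and −0.0517 for H3K27ac, across genes. The C59 β-catenin lists held only 330 and 358 summits, so most windows had no deviation to correlate. Whether the replicates were paired cannot be decided from these values. The lists give no coverage at sites that were not called, which limits what can be said of C59 β-catenin libraries below 11 fragments.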
